A study of Mus musculus with 4 samples.

Results

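Tissue inhibitors of metalloproteinases (TIMPs) and 3 of the matrix metalloproteinases (MMPs) they act with were followed in brain sections of mice with and without endothelial Pdcd10. The members were the 7 genes Timp1, Timp2, Timp3, Timp4, Mmp2, Mmp14 and Mmp15, chosen by symbol from the 32285 genes listed for each library, and all 7 were listed. RNA was captured from 10 µm fresh-frozen sections on 10x Visium slides, whose barcoded spots each cover a small region that can hold several cells. The 2 control libraries came from Pdcd10fl/fl mice and the 2 knockout libraries from Slco1c1-iCreERT2;Pdcd10fl/fl littermates, in which a tamoxifen-regulated Cre recombinase is driven in brain endothelium. The design text gives 50 µg of 4-hydroxy-tamoxifen on postnatal day 1 and analysis on postnatal day 65, and both genotypes carry the floxed alleles. Pdcd10, also called Ccm3, is a gene of cerebral cavernous malformations, which are clusters of dilated, leaky brain vessels. The labels conflict on oxygen. Titles have every library as normoxic, the treatment field has only the controls so and the knockouts as hypoxic, and the protocol text attached to each library describes 2 days at 12% oxygen. If the treatment field holds, genotype and oxygen cannot be told apart. Whether the 2 libraries of a genotype are from different mice is not stated. The p-values between genotypes therefore reflect section-to-section spread, which may be technical.

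MMPs are zinc proteases that cut collagens, laminins and other matrix proteins. Mmp2 encodes gelatinase A, a secreted protease, and Mmp14 and Mmp15 encode proteases anchored in the cell membrane (MT1-MMP and MT2-MMP). TIMPs are small secreted proteins that fill the active site of these enzymes. Timp2 has a further role, since the MT1-MMP protein binds TIMP2 on the cell surface and the pair presents the proenzyme of MMP2 for activation. TIMP3 stays bound to the matrix and also inhibits ADAM and ADAMTS proteases. Timp1 is the inducible member and is known to be switched on in astrocytes after brain injury and inflammation.

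On GRCm38.p6, Timp1 lies at chrX:20870166-20874737, wholly inside the synapsin gene Syn1 (chrX:20860511-20920918) and on its opposite strand. Timp4 lies at chr6:115244444-115252205, wholly inside Syn2 (chr6:115134902-115282626) and also on the opposite strand, and Timp3 at chr10:86300412-86349505 lies wholly inside Syn3 (chr10:86048746-86498926). Whether the counting used strand is not given in the sources used here, so the levels of these host genes are given beside the TIMPs. Timp2 is at chr11:118301061-118355411, where Cep295nl overlaps it. Mmp2 is at chr8:92827290-92853421, where the long non-coding RNA Gm45472 overlaps it, Mmp14 at chr14:54431598-54442456 and Mmp15 at chr8:95352296-95374293. RefSeq promoters of that build, 250 bases before to 50 after the start, were matched for 6 of the 7 members, all but Mmp2. The bases before the start are shown for the 4 TIMPs, which all passed the test in the same direction (5′ to 3′ on the gene's strand), with the Sp1 motif GGGCGG in capitals on either strand.
Timp1, chrX:20869916-20870165, + strand: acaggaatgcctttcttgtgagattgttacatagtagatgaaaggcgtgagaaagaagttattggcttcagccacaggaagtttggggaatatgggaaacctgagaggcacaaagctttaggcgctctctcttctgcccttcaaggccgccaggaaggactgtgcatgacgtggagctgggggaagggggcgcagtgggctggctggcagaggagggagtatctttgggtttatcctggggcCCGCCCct
Timp2, chr11:118355412-118355511, − strand: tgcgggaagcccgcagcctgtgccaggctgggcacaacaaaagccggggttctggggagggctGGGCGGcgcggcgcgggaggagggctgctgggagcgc
Timp3, chr10:86300312-86300411, + strand: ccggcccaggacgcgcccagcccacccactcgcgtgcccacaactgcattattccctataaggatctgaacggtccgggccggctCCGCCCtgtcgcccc
Timp4, chr6:115252206-115252305, − strand: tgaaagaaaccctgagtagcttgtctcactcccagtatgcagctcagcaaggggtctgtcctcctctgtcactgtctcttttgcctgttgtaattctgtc

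The base composition of these stretches differed: G and C made up 75% of the 100 bases before the Timp2 start, 69% for Timp3 and 49% for Timp4, and 54.4% of the 250 bases for Timp1. Over the 300-base windows on both strands, GGGCGG occurred in 5 of the 6 members with a promoter, all but Timp4, and in 35.7% of all 32851 promoters. The AP-1 motif TGANTCA (7.81% of promoters) and the STAT motif TTCNNNGAA (8.30%) occurred in 0 of the 6. The AP-1 variant TGAGTAA occurred in 1 of the 6, Timp1, and in 2.68% of all promoters. It is shown in capitals within 30 bases, 27 bases after the annotated start.
Timp1 AP-1 variant, chrX:20870180-20870209, + strand: gcggtgggtggaTGAGTAAtgcgtccagga

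A match is a description of these letters and not a site that was shown to be bound.

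The libraries held between 50148764 and 74467027 unique molecular identifiers (UMIs, each standing for 1 captured transcript) over 4992 barcodes, the same barcode list in all 4. Spots with at least 1000 UMIs were kept, between 2931 and 4599 a library, with median depths from 8158 to 16226.5 UMIs. The shallowest by median was knockout 1. Neuronal, astrocytic and oligodendrocytic marker lists were measured in all 4 sections, so the sections hold brain. The sections differed by marker list. Sums of 6 pituitary genes were 194 and 57.1 CPM (UMIs scaled to a common library total) in controls and 0.169 and 0.0944 in knockouts. By the highest-scoring region list, 35.1% and 38.7% of control spots but 16.0% and 12.2% of knockout spots were called white matter. Region calls rest on expression, and 7 of 7 white matter genes were lower in knockouts. Different coverage and lower white matter RNA cannot be told apart here, and region-matched sums share this limit. The targeted gene Pdcd10 stood at 90.9 and 82.3 CPM in controls against 80.3 and 83.0 in knockouts, and did not pass the test (log2 fold change -0.08, edgeR adjusted p = 0.410). These are levels over all cells of a section, of which endothelium is a small part.

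All 4 TIMP transcripts and Mmp14 were higher in knockout sections, and Mmp2 and Mmp15 were lower. Timp1 changed from a transcript barely seen to one found in spots of every region list, about 58-fold. The other 3 TIMPs rose by 1.77-fold to 2.42-fold. The test was edgeR's quasi-likelihood test on UMIs summed over each section, with Benjamini-Hochberg adjustment over 17546 genes, and the adjusted p-values of the whole-section comparisons come from it. All 7 members passed the filter on low counts and all 7 passed the test, 5 higher and 2 lower, and in all 7 the control and knockout libraries did not overlap. Such calls were common: 38.4% of all genes tested were called, 20.1% higher and 18.3% lower, and in 72.5% the groups did not overlap. In bulk sums of this kind, fewer cells of a type and less RNA per cell cannot be told apart.

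Timp1 gave 33 UMIs in control 1, 35 in control 2, 1965 in knockout 1 and 2762 in knockout 2. After scaling this was 0.676 and 0.570 CPM in controls against 36.4 and 35.9 in knockouts. The 2 libraries of each genotype lay close together, and the genotypes were far apart. The log2 fold change was 5.87 (SE 0.115, edgeR adjusted p = 2.64e-06), a ratio of 58.4. Its host gene Syn1, a synaptic vesicle protein of neurons, averaged 445 CPM in the controls and had a log2 fold change of 0.02 that did not pass (adjusted p = 0.875).

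Timp2, the TIMP that serves both inhibition and activation of MMP2, stood at 306 and 296 CPM in controls against 523 and 542 in knockouts. The log2 fold change was 0.82 (SE 0.0775, edgeR adjusted p = 0.000355). Timp3, the matrix-bound member, stood at 62.7 and 79.1 in controls against 136 and 131 in knockouts, a log2 fold change of 0.91 (SE 0.110, edgeR adjusted p = 0.00101). Control 2 lay above control 1, and both lay below the knockouts. Timp4, known for its expression in astrocytes and the heart, stood at 43.3 and 53.0 in controls against 129 and 104 in knockouts. Its log2 fold change was 1.27 (SE 0.131, edgeR adjusted p = 0.000521). The host genes did not pass: Syn2 had a log2 fold change of -0.05 (adjusted p = 0.701) and Syn3 of -0.01 (adjusted p = 0.945), and 0 of the 3 synapsins had an unadjusted p under 0.05 in edgeR.

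The proteases were scarcer in counts. Mmp14 had 86 control UMIs in replicate 1 and 144 in replicate 2, against 202 and 266 knockout UMIs, or 1.76 and 2.34 CPM against 3.75 and 3.46. The log2 fold change was 0.80 (SE 0.176, edgeR adjusted p = 0.0115). With sums drawn from equal numbers of spots of each region it was 0.72 and no longer passed (adjusted p = 0.0762), and with spots thinned to 1000 UMIs it was 0.50 (adjusted p = 0.356). Mmp2 stood at 2.58 and 3.32 CPM in controls against 1.69 and 1.62 in knockouts, a log2 fold change of -0.84 (SE 0.181, edgeR adjusted p = 0.0105). Without the spots that held at least 5 choroid plexus and pituitary UMIs it was -0.39 and did not pass (adjusted p = 0.149). That limit, set on counts not thinned, removed spots unequally. It left 1895 of 2931 and 2682 of 4096 control spots, and 4324 of 4599 and 4022 of 4472 knockout spots. With region-matched sums the Mmp2 change was -1.14 (adjusted p = 0.00894). Fibroblast and leptomeningeal markers moved with Mmp2: 8 of 10 fell and 0 rose, and their sum was 223 and 210 CPM in controls against 116 and 136 in knockouts. Their part in the Mmp2 result was not tested. Mmp15 stood at 15.5 and 20.1 in controls against 9.92 and 8.03 in knockouts, a log2 fold change of -0.996 (SE 0.151, edgeR adjusted p = 0.00265). With region-matched sums the Mmp15 change was -1.13 (adjusted p = 0.000129). Oligodendrocyte markers moved with Mmp15, with 8 of 8 lower and sums of 8179 and 11599 against 4942 and 3555. Their part in the Mmp15 result was not tested.

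**Figure D1:**
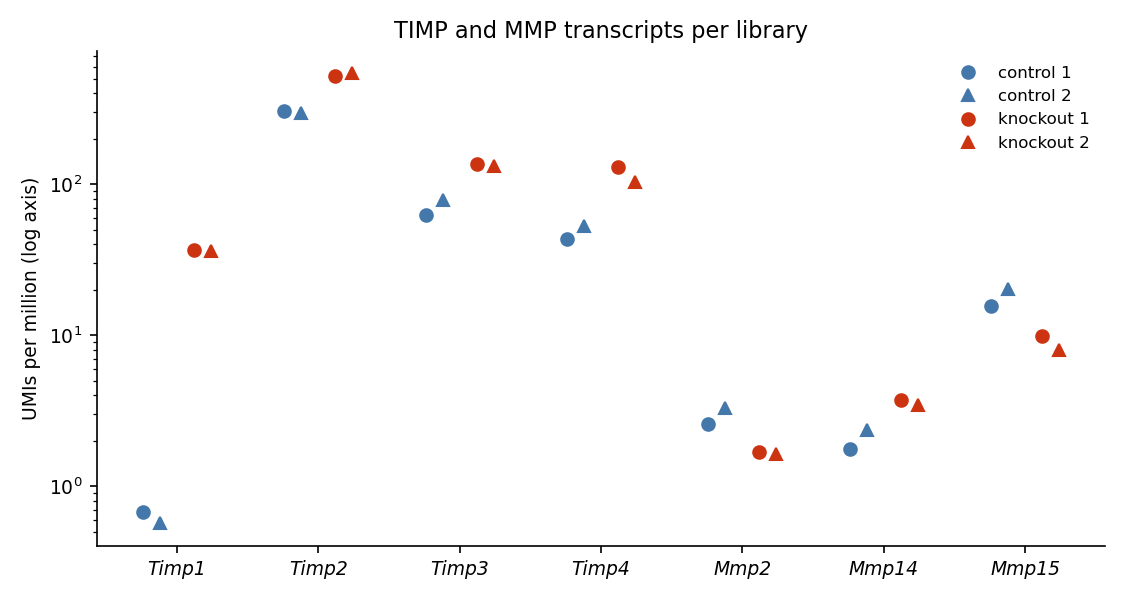
CPM, scaled by TMM, of the 7 members (x axis) on a log y axis, with 1 point for each library: circles are replicate 1 and triangles replicate 2, blue controls and red knockouts. Timp1 lies at 0.676 and 0.570 in controls and 36.4 and 35.9 in knockouts, and no member's control and knockout points overlap. Levels of different genes are not compared, because a 3′ UMI count was not set against transcript length.

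All 4 TIMPs were found in more knockout than control spots. Each spot of at least 5000 UMIs was thinned to 5000, because the libraries differ in depth, which left out 664 and 1539 control and 1647 and 1004 knockout spots that were kept above but shallower. At this depth 8 of 2267 and 6 of 2557 control spots held a Timp1 UMI (0.353% and 0.235%), against 484 of 2952 and 596 of 3468 knockout spots (16.4% and 17.2%). All 14 positive control spots held a single Timp1 UMI, while the highest knockout spots held 16 and 7. Without thinning, the shares of spots of at least 1000 UMIs were 0.955% and 0.806% in controls and 26.5% and 33.7% in knockouts, with at most 3 and 2 Timp1 UMIs in a control spot and at most 53 and 35 in a knockout spot. The top 1% of knockout spots held 15.1% and 16.1% of all Timp1 UMIs, so the transcript was not confined to a few spots. With 2 libraries a group, an exact two-sided permutation test over libraries cannot give a p below 0.333, so shares are given without a test.

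Timp2 was the most widely seen member, in 70.2% and 70.6% of thinned control spots and 86.4% and 85.2% of knockout spots. Timp3 was in 27.6% and 32.7% of control and 46.5% and 43.4% of knockout spots, and Timp4 in 22.5% and 24.3% against 47.7% and 41.6%. The proteases moved as their levels did: Mmp14 was in 1.19% and 1.21% of control and 1.76% and 1.87% of knockout spots, Mmp2 in 1.72% and 2.07% against 0.881% and 0.952%, and Mmp15 in 8.60% and 9.23% against 4.54% and 3.89%. Syn1, whose level did not pass the test, was in 83.5% and 84.2% of control and 84.4% and 86.0% of knockout spots.

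**Figure D2:**
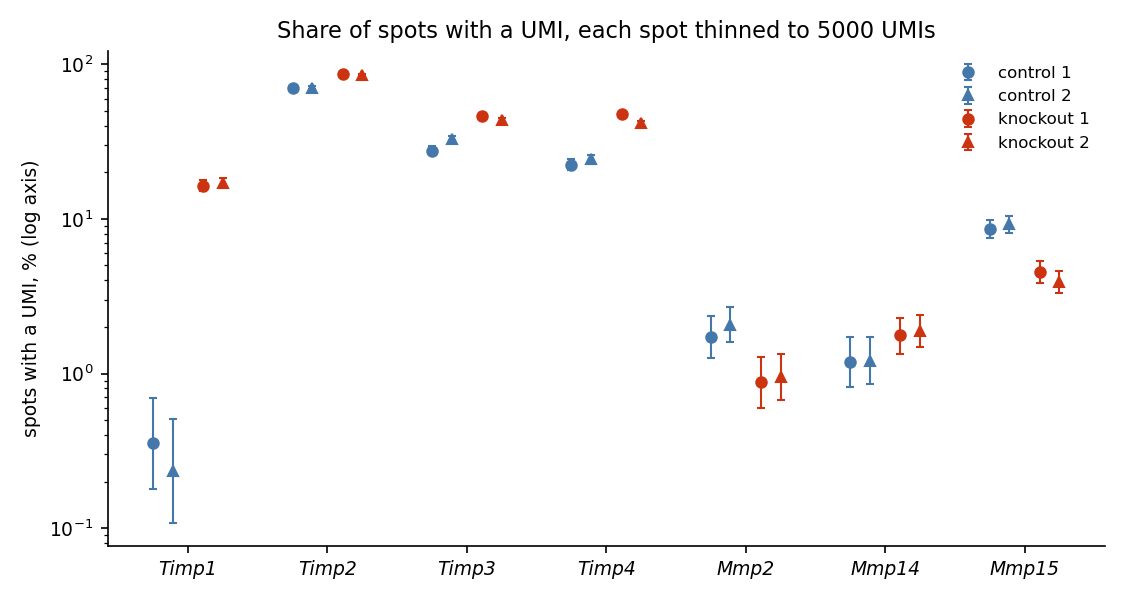
Percent of spots with at least 1 UMI of each member (log y axis), after thinning every spot of at least 5000 UMIs to 5000, with 95% Wilson intervals that cover counting error only and 1 point for each library. Timp1 moves from 0.353% and 0.235% of control spots to 16.4% and 17.2% of knockout spots, while Mmp2 and Mmp15 are in fewer knockout than control spots.

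To see which cells' transcripts the members went with, the top 10% of a library's thinned spots by share of UMIs of a marker list were compared with the library's other spots, with the library as a block. Neighbouring cells share a spot, so these are mixed regions and not cell types. With 2 libraries a genotype, these fits took much of their spread from all genes together. A p-value can therefore be too small for a gene whose sections differ. In endothelium-rich spots edgeR's quasi-likelihood test called 3 of 7 members in knockouts and 2 in controls, against 12.5% and 4.69% of all genes tested, and 0 for the difference between genotypes (2 at an unadjusted p under 0.05, 0.125% of genes called). In mural-rich spots it called 4 in knockouts and 3 in controls (9.56% and 10.3% of genes), and 0 for the difference (1 unadjusted, 0.234%). In spots rich in fibroblast and leptomeningeal markers it called 1 in knockouts and 3 in controls (4.62% and 8.44%), and 0 for the difference (3 unadjusted, 0.393%). For astrocyte markers the counts were 3 and 5 (25.5% and 20.8%) and 0 for the difference (1 unadjusted, 1.29%). For reactive astrocyte markers they were 5 and 5 (27.8% and 26.9%) and 2 for the difference (4.81%). For activated phagocyte markers they were 4 and 2 (14.8% and 14.7%) and 0 for the difference (2 unadjusted, 5% of genes). For oligodendrocyte markers they were 2 and 5 (26.4% and 25.8%) and 2 for the difference (3.68%), and for neuronal markers 3 and 3 (13.6% and 19.8%) and 1 for the difference (3.25%). Of these calls, 9 of 25 in knockouts, 18 of 28 in controls and 4 of 5 for the difference did not pass when some library was left out, and named values below say where.

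In spots rich in reactive astrocyte markers Timp1, Timp3 and Timp4 were all higher in knockouts, and their results in the other classes differed. Timp1 in knockouts was higher in spots rich in reactive astrocyte markers, at 91.4 against 35.3 CPM in knockout 1 and 88.4 against 35.9 in knockout 2 (log2 1.33, SE 0.119, edgeR adjusted p = 1.03e-14). It was also higher in spots rich in activated phagocyte markers such as Gpnmb, Lgals3 and Spp1, at 69.3 against 37.6 and 72.0 against 37.8 (log2 0.91, SE 0.144, adjusted p = 2.25e-05). It was lower in oligodendrocyte-rich spots, at 10.4 against 43.1 and 13.5 against 43.1 (log2 -1.84, SE 0.200, adjusted p = 1.37e-08). In endothelium-rich spots it was 53.3 against 39.9 and 43.9 against 41.5, and the log2 of 0.25 did not pass (SE 0.153, adjusted p = 0.348). Mural-rich spots (log2 0.20, adjusted p = 0.483) and spots rich in astrocyte markers shared by resting astrocytes (log2 -0.33, adjusted p = 0.120) did not pass either. Control sections held only 8 and 6 Timp1 UMIs at this depth, and their 2 Timp1 calls, in spots rich in reactive astrocyte and in fibroblast markers, rest on these and did not pass without control 1 (3.13, adjusted p = 0.0765, and 3.08, adjusted p = 0.273).

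Timp3 was higher in spots rich in vascular, meningeal and astrocyte markers in both genotypes. In endothelium-rich spots it stood at 161 against 66.8 and 170 against 80.3 CPM in the controls (log2 1.17, SE 0.153, edgeR adjusted p = 9.49e-06), and at 295 against 131 and 496 against 115 in the knockouts (log2 1.68, SE 0.121, adjusted p = 1.54e-10). Knockout 2 had the steepest contrast of the 4 libraries. The difference between genotypes was 0.50 and did not pass (SE 0.190, adjusted p = 0.638). In mural-rich spots Timp3 was higher by log2 1.61 (SE 0.175) in controls and 1.59 (SE 0.150) in knockouts, and in fibroblast-rich spots by 1.44 (SE 0.182) and 1.39 (SE 0.158), and all 4 passed. It was lower in neuron-rich spots, by log2 -0.97 in controls and -0.93 in knockouts, which both passed. In spots rich in reactive astrocyte markers it was higher by log2 1.67 (SE 0.102, adjusted p = 8.19e-22) in controls and 1.28 (SE 0.0817, adjusted p = 4.98e-21) in knockouts. In astrocyte-rich spots the values were 0.93 and 1.17, and in phagocyte-rich spots 1.23 and 0.81, and all 4 passed. The knockout value in phagocyte-rich spots did not pass without knockout 2 (0.38, adjusted p = 0.141).

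Timp4 was higher in spots rich in astrocyte markers, though not only there. In astrocyte-rich spots it stood at 110 against 46.8 and 98.8 against 54.4 CPM in controls (log2 1.04, SE 0.121, edgeR adjusted p = 3.48e-15) and at 279 against 130 and 239 against 109 in knockouts (log2 1.12, SE 0.0807, adjusted p = 7.36e-37). In spots rich in reactive astrocyte markers the knockout contrast was log2 1.21 (SE 0.0815). The control contrast was 0.57 (SE 0.133), which did not pass without control 1 (0.27). The difference of 0.64 passed with all libraries (SE 0.149, adjusted p = 0.00326), but not without control 2 (0.33, adjusted p = 0.439) or without knockout 2 (0.47, adjusted p = 0.172). In neuron-rich spots Timp4 was lower than in the other spots of knockouts (log2 -0.75, SE 0.0992, adjusted p = 6.08e-09). The same held in controls (log2 -0.64, SE 0.153, edgeR adjusted p = 0.000775), though not past the threshold without control 2. The difference between genotypes there was -0.11 and did not pass (SE 0.193, adjusted p = 0.889). Knockout spots rich in endothelial (log2 0.60, edgeR adjusted p = 1.41e-05), mural (0.51, 0.00137) and activated phagocyte markers (0.46, 0.000639) were higher. Without knockout 2 the mural and phagocyte values were 0.40 and 0.35, and neither passed. Control spots rich in oligodendrocyte (0.72, adjusted p = 2.64e-05) and activated phagocyte markers (0.64, adjusted p = 0.000565) were higher too. Without control 1 this phagocyte value was 0.52 and did not pass.

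Timp2, unlike Timp3 and Timp4, was lower in astrocyte-rich spots of both genotypes (log2 -0.43, SE 0.0866 in controls and -0.75, SE 0.0749 in knockouts, both past the threshold). In neuron-rich spots it stood at 242 against 291 and 236 against 296 CPM in the controls, and at 604 against 477 and 537 against 475 in the knockouts. Both control libraries were lower in neuron-rich spots and both knockout libraries higher. The difference between genotypes was log2 0.56 (SE 0.0983, edgeR adjusted p = 3.86e-05) and passed without any 1 of the 4 libraries and with the top 5% of spots. The knockout contrast alone, log2 0.26 (adjusted p = 0.00119), did not pass without knockout 1 (0.17, adjusted p = 0.111), and the control contrast, -0.30 (adjusted p = 0.00207), did not pass without control 1 (-0.34, adjusted p = 0.0571) or control 2 (-0.28, adjusted p = 0.159). In oligodendrocyte-rich knockout spots Timp2 was 282 against 489 and 281 against 479 (log2 -0.78, SE 0.0623, adjusted p = 2.05e-11). In fibroblast-rich spots it was higher in controls (log2 0.51, SE 0.0827, adjusted p = 0.000597), but not past the threshold without control 1 (0.53, adjusted p = 0.120) or control 2 (0.44, adjusted p = 0.189).

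Among the proteases, Mmp14 in knockouts was higher in spots rich in reactive astrocyte markers, at 10.6 against 2.99 and 9.30 against 3.47 CPM (log2 1.60, SE 0.366, edgeR adjusted p = 0.000398). These rest on 15 and 16 UMIs in the rich spots and 41 and 57 in the others. Mural-rich spots were called higher for Mmp14 in knockouts (log2 1.40, edgeR adjusted p = 0.0218) and controls (1.58, adjusted p = 0.0491). Astrocyte-rich control spots were too (1.47, adjusted p = 0.0325). These 3 calls were among those lost when some library was left out. In phagocyte-rich knockout spots Mmp14 was 5.54 against 3.51 and 13.8 against 2.9996 (log2 1.60, adjusted p = 0.00468), which did not pass without knockout 2 (0.63, adjusted p = 0.756). No class passed for Mmp2 or Mmp15 in knockouts, where Mmp2 had log2 values from -0.02 to 1.23 and Mmp15 from -0.88 to 0.72. The SE of these Mmp2 values lay between 0.541 and 0.699, so a difference of that size was not detectable at this depth. In controls edgeR called Mmp2 higher in spots rich in reactive astrocyte (log2 1.33, adjusted p = 0.0196) and oligodendrocyte markers (1.35, adjusted p = 0.0224). Control Mmp15 was called higher in astrocyte-rich (0.67, adjusted p = 0.0115) and oligodendrocyte-rich spots (0.66, adjusted p = 0.0251). All of these control calls were lost when some library was left out.

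**Figure D3:**
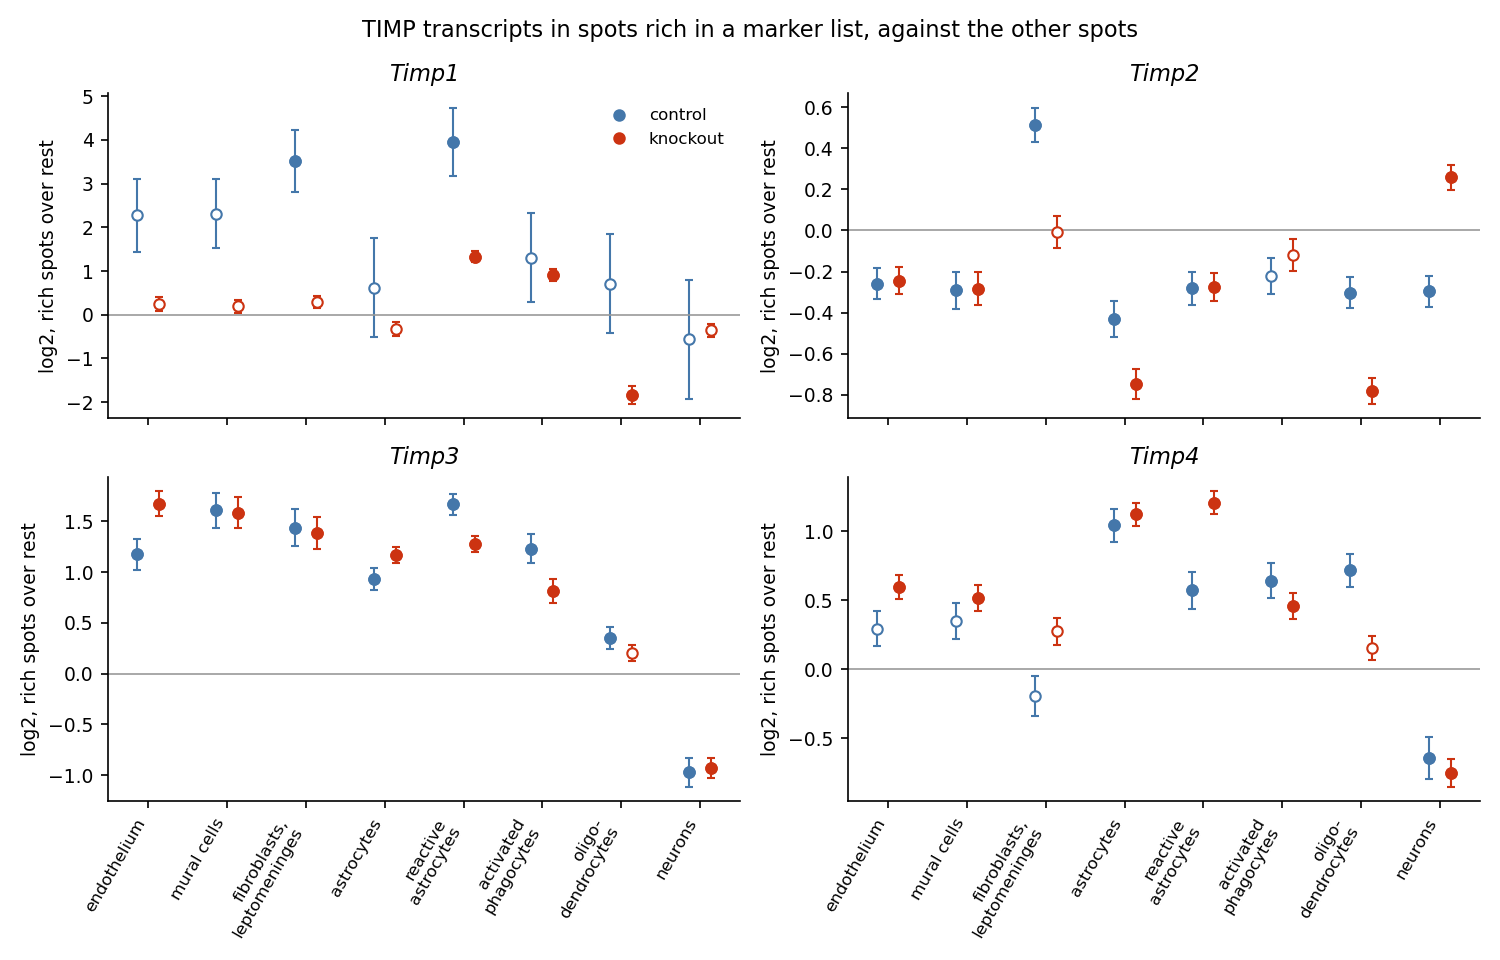
Log2 ratio of each TIMP in the top 10% of spots by a marker list over the other spots (y axis), by list (x axis), in controls (blue) and knockouts (red), with standard errors of the fit, and filled points past an adjusted p of 0.05. Timp1 in knockouts peaks in reactive astrocyte-rich spots at 1.33 and is lowest in oligodendrocyte-rich spots at -1.84, and Timp3 is high in the vascular lists. Timp2 in neuron-rich spots is below 0 in controls and above 0 in knockouts, while its correlation with the neuronal list over all thinned spots is positive in both.

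The transcripts that go with Timp1 were read from knockout spots with a Timp1 UMI against those without, at 5000 UMIs a spot. Timp1-positive spots held more transcripts of the reactive astrocyte and activated phagocyte lists, and fewer of the oligodendrocyte and the midbrain and hindbrain lists, with counts given below. The cortex, white matter and thalamus lists shifted as well, so positive and negative spots also differed by region list. Of 14307 genes tested 2048 (14.3%) were called, 987 higher (6.9%) and 1061 lower (7.42%), with the section as a block. The fit took the spread between the 2 sections from all genes together, with a common dispersion (spread beyond counting error) of 0.00047. It was not estimated gene by gene, so a p-value can be too small for a gene whose sections differ. The ratio in each section is therefore given first.

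Igfbp2, an insulin-like growth factor binding protein, stood at 415 against 219 CPM in knockout 1 and 362 against 194 in knockout 2, ratios of 1.90 and 1.87. Its log2 was 0.91 (SE 0.0465, edgeR adjusted p = 3.001e-81), and the 2 sections were alike. Spp1, the secreted osteopontin of phagocytes, had ratios of 1.66 and 1.76, and S100a11, a calcium-binding protein, 1.91 and 1.72. Ezr, a linker of membrane and actin, had 1.74 and 1.63, Tagln, an actin-binding protein of smooth muscle, 1.89 and 1.65, and Tm4sf1, a membrane protein of vessels, 1.69 and 1.99. Osmr, the oncostatin M receptor, had 1.58 and 1.84, and Lcn2, a lipocalin of reactive astrocytes, 1.48 and 1.84. The chemokine Ccl12 had 2.25 and 2.15, and the interferon-induced Ifit3 1.96 and 2.28. Further rises were those of Lcat (1.56 and 1.97), Stab1 (1.70 and 1.75), Hbegf (1.83 and 1.64), Adm (2.06 and 1.38), Lgals3 (1.28 and 1.999), Sbno2 (1.96 and 1.58), Glipr2 (1.88 and 1.76) and Smoc2 (1.90 and 1.53). All of them were above 1 in both sections, as the naming rule requires.

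Cxcl10, the chemokine with the largest fitted rise (log2 2.70), differed between the sections: it was 4.16 against 3.04 in knockout 1, a ratio of 1.37, and 82.0 against 10.1 in knockout 2, a ratio of 8.11. Knockout 2 held 1617 Cxcl10 UMIs, of which 69.1% lay in the top 1% of spots, and knockout 1 held 171. When negative spots were matched to the positives on region list, 19 of the 20 largest rises passed. Matching left 892 genes called, of which 867 were among the 2048.

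The largest falls were the dopamine transporter Slc6a3 (ratios 0.0795 and 0.180), the vesicular monoamine transporter Slc18a2 (0.143 and 0.202), Cartpt (0.133 and 0.239), Sncg (0.207 and 0.219), tyrosine hydroxylase Th (0.215 and 0.230), Tac1 (0.297 and 0.262), the subcortical glutamate transporter Slc17a6 (0.315 and 0.254) and Dlk1 (0.346 and 0.250). They were below 1 in both sections by the rule. Of the midbrain and hindbrain list, which holds Slc6a3, Slc18a2 and Th among these falls, 7 of 8 genes were lower and 0 higher. Of white matter genes 7 of 7 were lower, and of thalamus genes 4 of 8 were lower and 0 higher. Cortex genes went the other way, with 4 of 8 higher and 0 lower (median log2 0.41).

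**Figure D4:**
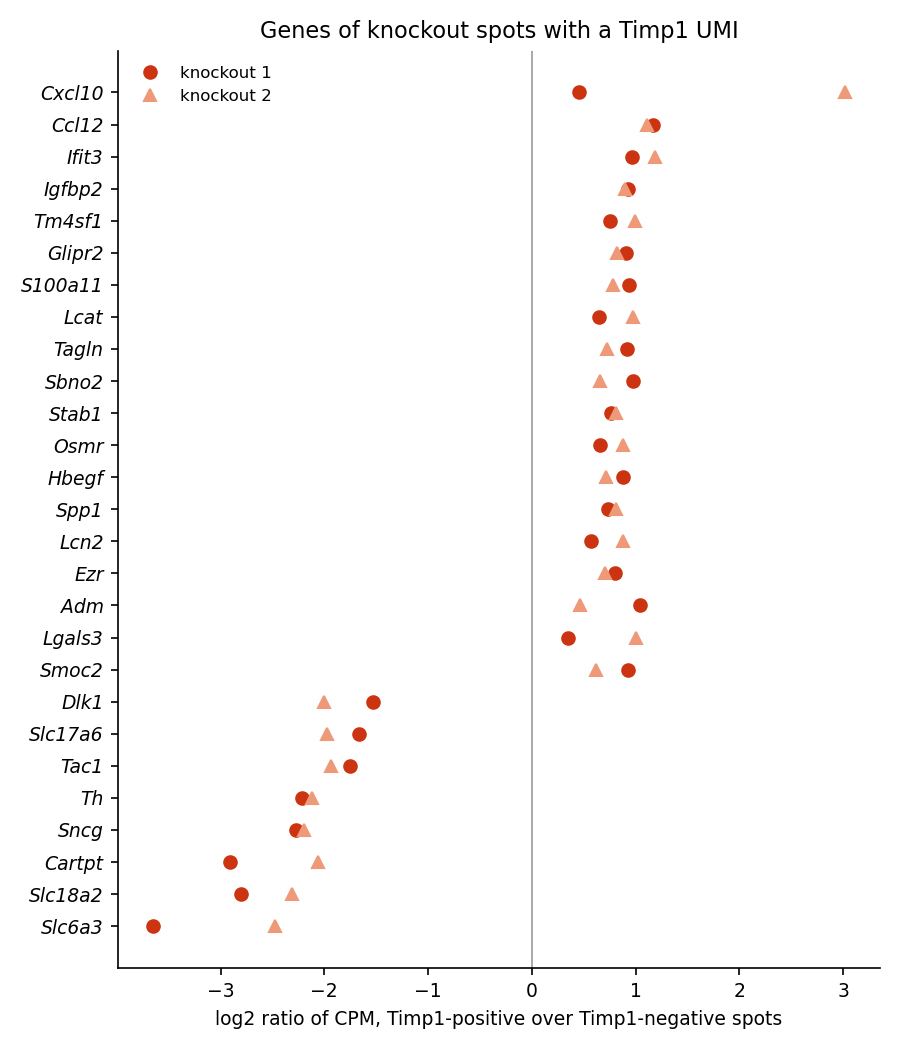
Log2 ratio of CPM in knockout spots with a Timp1 UMI over those without (x axis), for the 19 of the 20 largest rises that also passed with region-matched negatives and the 8 largest falls (y axis), with 1 point for each knockout section. Points of the 2 sections lie near each other for Igfbp2 (ratios 1.90 and 1.87) and far apart for Cxcl10 (1.37 and 8.11).

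By list, 11 of 15 reactive astrocyte genes were higher in Timp1-positive spots and 0 lower, with a median log2 of 0.61, against a median of 0.0039 over all 14307 genes. The intermediate filament gene Vim had ratios of 1.68 and 1.64, the serine protease inhibitor Serpina3n 1.49 and 1.47, and Gfap, which marks astrocytes, 1.14 and 1.17. Of activated phagocyte genes 9 of 12 were higher (median 0.58), among them Gpnmb (1.54 and 1.59) and Cd68 (1.47 and 1.59). Of cytokine, STAT3 and AP-1 genes 6 of 12 were higher and 0 lower (median 0.35), with Socs3, a feedback inhibitor of STAT3 signalling, at 1.996 and 1.39. Erythrocyte genes were higher in 4 of 5 (median 0.58), with Hba-a1 at 1.42 and 1.55. Myelin genes went the other way, with 7 of 8 oligodendrocyte genes lower (median -0.62) and Mbp at 0.417 and 0.485. Vascular lists barely moved: 2 of 14 endothelial, 1 of 10 lesion endothelial and 0 of 10 mural genes (1 at an unadjusted p under 0.05) were called by edgeR. Astrocyte genes that mark resting cells too split into 2 higher and 6 lower of 12. The Timp1 host gene Syn1 had ratios of 1.15 and 1.09 (log2 0.16, edgeR adjusted p = 0.00218), and 2 of 3 synapsins were higher.

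Among the other members, Timp2 had ratios of 1.19 and 1.07 (log2 0.17, SE 0.0408, edgeR adjusted p = 0.000488). That call was lost with region-matched negatives (0.10, adjusted p = 0.159), with at least 2 Timp1 UMIs (0.07, adjusted p = 0.769) and with spots thinned to 2000 UMIs (-0.01, adjusted p = 0.982). Timp4 had 1.12 and 1.17 (log2 0.20, SE 0.0623, adjusted p = 0.0143), and passed with region-matched negatives (0.19, adjusted p = 0.0441) and with at least 2 Timp1 UMIs (0.39, adjusted p = 0.0460) but not with spots thinned to 2000 UMIs (0.13, adjusted p = 0.665), and without thinning its sign turned (-0.08, adjusted p = 0.0560). Timp3 had 0.995 and 0.816 and did not pass (log2 -0.16, adjusted p = 0.0655), though it passed in spots that were not thinned (-0.49, adjusted p = 1.43e-39), where positive and negative spots differ in depth. Mmp14 had 1.53 and 1.82 and did not pass (log2 0.76, adjusted p = 0.0915), and with region-matched negatives it was 1.02 (adjusted p = 0.0441). Mmp2 (1.45 and 1.30) and Mmp15 (0.659 and 0.682) did not pass either. Of 8 other MMPs tested 2 were higher and 0 lower. Mmp17 had ratios of 1.36 and 1.27 (edgeR adjusted p = 0.000134). Macrophage metalloelastase Mmp12 was at 16.0 against 5.54 CPM in knockout 2 (fit over both sections, adjusted p = 8.11e-06), and at 0.416 against 0.246 in knockout 1, too few UMIs for a ratio. The receptor Cd44 had ratios of 1.55 and 1.44 (adjusted p = 0.00454).

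Levels of these lists also went with the number of Timp1 UMIs in a spot. In knockout 1 the 15 reactive astrocyte genes summed to 8.25 UMIs a spot at 0 Timp1 UMIs, 11.8 at 1, 13.2 at 2 and 14.3 at 3 or more, and in knockout 2 to 8.29, 11.5, 15.8 and 15.1. Oligodendrocyte genes fell from 29.7 at 0 to 14.6 at 1 and 12.2 at 2 in knockout 1, and from 23.5 to 13.7 and 12.4 in knockout 2. Endothelial genes were at 2.72, 3.05, 3.64 and 3.58 in knockout 1 and at 2.66, 2.74, 3.36 and 1.91 in knockout 2, over the same 4 groups of spots. The group with 3 or more holds 19 and 22 spots, and there oligodendrocyte genes were at 19.1 in knockout 1 and 9.82 in knockout 2.

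**Figure D5:**
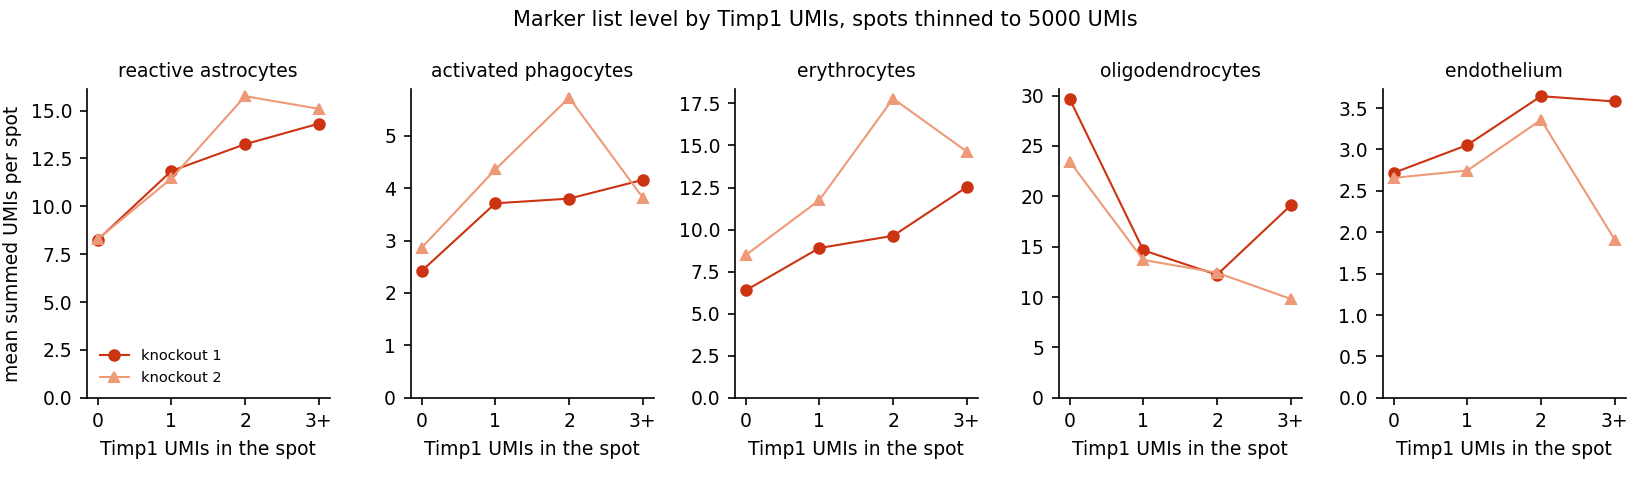
Mean summed UMIs per spot of 5 marker lists (y axes, from 0) by the number of Timp1 UMIs in the spot (x axis), in both knockout sections after thinning to 5000 UMIs. Reactive astrocyte genes go from 8.25 and 8.29 at 0 Timp1 UMIs to 13.2 and 15.8 at 2, oligodendrocyte genes go down, and the last point rests on 19 and 22 spots.

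The genes whose counts were most correlated with each member over thinned spots are given next. These are Pearson correlations of log(count + 1) across 2952 and 3468 knockout or 2267 and 2557 control spots of a section, over 7332 control or 7537 knockout genes with a mean of at least 0.1 UMI a spot, and spots share tissue and section, so they are descriptions. For Timp1 in knockouts the 10 highest were Vim (r = 0.246 and 0.229), Igfbp2 (0.242 and 0.228), S100a6, Slc17a7, Actb, Mt2, Nrgn, Serpina3n, Fam107a and Hba-a1 (0.150 and 0.157). Slc17a7 and Nrgn are genes of cortical excitatory neurons, and Mt2 is a metallothionein. For Timp2 they were Nnat (0.219 and 0.214), Ly6h and Dcn, a matrix gene of fibroblasts, in controls, and Slc17a7 (0.339 and 0.298), Calm2 and Ly6h in knockouts. Timp3 went with Ptgds (0.324 and 0.273), a prostaglandin synthase of meninges and oligodendrocytes, Igf2 and Apoe in controls, and with Apoe (0.232 and 0.303) and the endothelial genes Ly6a (0.191 and 0.310) and Ly6c1 (0.181 and 0.312) in knockouts. Timp4 went with Mbp (0.215 and 0.141), Aldoc and Sparc in controls, and with Mt1 (0.290 and 0.283), Cst3 and the glutamine synthetase gene Glul (0.227 and 0.237) in knockouts. For Mmp2, Mmp14 and Mmp15 the highest mean correlations lay between 0.0534 and 0.105, too weak in counts this sparse to name partners. The members were hardly correlated with each other: Timp1 with Timp2 had r = 0.0957 and 0.0326 in knockouts, Timp1 with Timp3 0.00113 and -0.0375, and Timp3 with Timp4 0.0937 and 0.0706.

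By region list, Timp1 in knockouts was 65.7 and 58.4 CPM in cortex, 48.0 and 60.9 in hippocampus and 60.8 and 41.8 in striatum, and was lowest in midbrain and hindbrain (11.6 and 19.9) and white matter (23.3 and 24.5). In thalamus (44.7 and 31.4), cerebellum (47.0 and 33.5), hypothalamus (28.4 and 41.7) and olfactory bulb (32.0 and 42.5) the order of the regions differed between the 2 sections. No control region held more than 4 Timp1 UMIs. Timp2 was lowest in white matter of knockouts (320 and 303) and 402 or higher elsewhere, while in controls white matter (254 and 253) and cortex (241 and 246) were alike. Timp3 in knockouts was highest in thalamus (189 and 261) and lowest in cortex (122 and 113). Timp4 in knockouts lay between 112 and 163 in every region, and in controls between 29.1 and 80.5. Mmp15 in thalamus was 42.9 and 21.9 in controls, on 35 and 22 UMIs, against 10.6 and 10.2 in knockouts, and it was highest there in control 1 but in hypothalamus in control 2 (31.9). In striatum, on 4 and 9 control UMIs, it was not lower in both knockouts (5.97 and 13.8 against 15.2 and 10.2). With equal numbers of spots drawn from each region the TIMP changes were 6.27 for Timp1, 0.71 for Timp2, 0.93 for Timp3 and 1.39 for Timp4 on the log2 scale, all past the threshold.

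The other genes of the pathway were taken as lists by role, chosen with earlier results of these data known. Beside the counts of each list stands the share over all 17546 genes, of which 38.4% were called, 20.1% higher and 18.3% lower. Of 6 other metalloproteinase inhibitors 3 were higher and 1 lower. A2m, the broad protease trap alpha-2-macroglobulin, went from 3.84 ± 0.944 to 58.8 ± 5.83 CPM (SD, n = 2), a log2 fold change of 3.92 (SE 0.153, edgeR adjusted p = 8.06e-06). Reck, a membrane-anchored MMP inhibitor, had 0.51 (adjusted p = 0.0128) and the proteoglycan Spock3 -0.36 (adjusted p = 0.0103), and Tfpi2 was the third of the 3 higher. The list's median log2 fold change was 0.31, against -0.00082 over all 17546 genes.

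Of 11 other MMPs tested 5 were higher and 1 lower (median 0.50). Mmp16, a membrane-type MMP, went from 5.48 ± 0.512 to 8.35 ± 0.208 (log2 0.60, SE 0.113, edgeR adjusted p = 0.00620), and Mmp17, another, from 90.9 ± 1.76 to 67.4 ± 11.3 (log2 -0.43, SE 0.110, adjusted p = 0.0201; SD, n = 2 each). The other 4 that rose were scarce. Mmp19 was at 0.353 ± 0.123 in controls and 2.37 in the knockouts on average, and Mmp9, the second gelatinase, had a log2 of 0.85 (adjusted p = 0.00711). Mmp8, the neutrophil collagenase, averaged 0.0244 in controls and was 0.705 and 0.793 in knockouts. Mmp12 gave 0 UMIs in both controls, 14 in knockout 1 and 340 in knockout 2, of which 81.8% lay in the top 1% of spots. The mean of the 2 knockouts, 2.34 ± 2.94 CPM (SD, n = 2), was 42.4 times a floor of 3 UMIs in each control library. That mean rests mostly on knockout 2, so the ratio does not hold as a bound for knockout 1.

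Of 8 ADAM proteases 3 were higher and 1 lower (median 0.14), with Adam15 at log2 0.70 (SE 0.0653, edgeR adjusted p = 0.000336), Adam9 at 0.40 and Adam19 at -0.48. Of 19 ADAMTS proteases, which Timp3 protein inhibits in part, 4 were higher and 6 lower (median 0.10). Adamts1 went from 12.5 ± 1.73 to 38.8 ± 1.02 CPM (SD, n = 2; log2 1.63, SE 0.101, adjusted p = 5.89e-05) and Adamts20 fell (log2 -0.74, SE 0.118, adjusted p = 0.00319). Of 7 receptors and partners 4 were higher and 1 lower (median 0.32), among them Cd44, a hyaluronan receptor that docks MMPs (log2 1.29, SE 0.0967, adjusted p = 0.000134), the beta-1 integrin Itgb1 (0.43) and Bsg, an inducer of MMPs (0.43). Of 6 genes of proenzyme activation 4 were higher and 0 lower (median 0.42), with the tissue plasminogen activator Plat at 0.48 and Furin, which cuts the proenzymes of membrane-type MMPs, at 0.37. The urokinase receptor Plaur also rose (log2 3.17, adjusted p = 2.49e-05).

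Of 16 matrix substrates 7 were higher and 3 lower (median 0.13). Col4a1, a collagen chain of basement membranes, went from 24.0 ± 2.29 to 79.0 ± 2.46 CPM (SD, n = 2; log2 1.72, SE 0.0839, edgeR adjusted p = 2.09e-05), Col4a2 by log2 1.49 (adjusted p = 1.70e-05) and Fn1, fibronectin, by 1.42 (adjusted p = 2.49e-05). The 3 that fell were Col1a2, Col3a1 and Bcan, chosen for naming after their values were seen. Of 14 cytokine, STAT3 and AP-1 genes 11 were higher and 2 lower (median 1.40). Osmr went from 2.45 ± 0.566 to 19.97 ± 0.465 (SD, n = 2; log2 3.01, SE 0.145, adjusted p = 1.94e-05) and Socs3 rose by log2 2.35 (adjusted p = 3.28e-05). Fos, an immediate early AP-1 subunit, fell from 112 ± 13.9 to 21.4 ± 0.497 (log2 -2.39, SE 0.0987, adjusted p = 1.01e-05), and Junb was the other that fell. Reactive astrocyte markers moved with Timp1 over whole sections, with 15 of 15 higher and sums of 158 and 177 CPM in controls and 1536 and 1494 in knockouts, and so did activated phagocyte markers (12 of 13 higher, 106 and 108 against 443 and 475) and neutrophil markers (5 of 7 higher and 1 lower, 8.78 and 6.76 against 38.8 and 40.2). No gene of these 3 lists was at 0 in any library. Their part in the Timp1 result was not tested.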

How the data were processed

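The deposited matrices are un-normalised UMI counts for every combination of 32285 genes and 4992 barcodes, 1 matrix a library. Space Ranger and the build mm10 are named in the submitters' processing notes, while the file headers name Cell Ranger 4. How the authors' counting treated strand, and with which annotation and version, is not given in the sources used here. Spot positions were not used, so no call of spots over tissue was made. Doublets do not apply to spots.

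The members and lists were chosen with earlier results of these data known. Spots of at least 1000 UMIs were summed for each section. The test was that of edgeR 4.0.16 under R 4.3.3 (TMM factors between 0.962 and 1.04, filterByExpr, quasi-likelihood test, Benjamini-Hochberg over all genes tested, threshold 0.05). Levels are CPM of the library total times its TMM factor. Spots with 5000 UMIs or more were drawn down to 5000 (seed 0) for shares, spot classes, Timp1-positive spots, correlations and regions. Levels in spot classes are CPM of the thinned sums, also scaled by TMM, and levels in regions are CPM without TMM. A spot's region is the region list with the highest score, and for region-matched sums each library gave the same number of spots of a region. Intervals and floors cover counting error only. Libraries of a group differed by more than counting error (chi-square per degree of freedom 51.6 for controls and 15.7 for knockouts). The 38 duplicated symbols were kept apart by identifier, and Mmp1a was not analysed here. Some items that the naming rule picks are not reported here.

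Named genes were the 7 members, Pdcd10, the synapsins, up to 3 genes per pathway list past the threshold with the smallest p whose mean level reached 5 CPM, the 20 largest rises and 8 largest falls of Timp1-positive spots (adjusted p under 0.05, mean of at least 20 CPM, same direction in both sections, no predicted symbol), and the 10 (Timp1) or 3 genes most correlated with a member. Others are marker genes set beside a result, or were chosen after their values were seen. Alternatives were DESeq2 1.42.0, other filters, depths, regions and spot classes, leaving out each library and, after seeing the data, a crossed pairing and a robust spread. Steps were tested on simulated data. Python 3.11.15 (pandas 2.3.3, numpy 2.4.6, matplotlib 3.10.9, scipy 1.17.1) was used for the rest.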

Additional observations from a re-analysis of the deposited data

Results flagged for a closer look

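In all, 5 differences between genotypes in spot classes passed edgeR's interaction test. Timp2 in neuron-rich spots differed by log2 0.56 (adjusted p = 3.86e-05), higher in both knockout and lower in both control libraries. Over all thinned spots, however, its correlation with the neuronal list was positive in both genotypes. Timp4 in spots rich in reactive astrocyte markers differed by 0.64 (adjusted p = 0.00326), which did not pass without control 2 (0.33, adjusted p = 0.439) or knockout 2 (0.47, adjusted p = 0.172). In oligodendrocyte-rich spots Timp2 differed by -0.48 (adjusted p = 0.00266), which did not pass without control 1 (-0.41, adjusted p = 0.0952). In the same spots Timp4 differed by -0.56 (adjusted p = 0.0233), which did not pass without control 1 (-0.44, adjusted p = 0.339), control 2 (-0.67, adjusted p = 0.0912) or knockout 1 (-0.55, adjusted p = 0.109). Timp1 in spots rich in reactive astrocyte markers differed by -2.62 (adjusted p = 0.0235), but the controls held 6 and 3 Timp1 UMIs in those spots and 2 and 3 in the others, and without control 1 the difference was -1.81 (adjusted p = 0.593).

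Barcodes under 1000 UMIs, which no main comparison used, carried Timp1, Timp2 and Timp3 above the control level. Timp1 gave 21 and 28 UMIs there in the knockouts, or 73.0 and 82.0 CPM, against 1 in each control (1.42 and 2.36). Timp2 stood at 399.6 and 377.9 in the knockouts against 173 and 198, and Timp3 at 191 and 149 against 85.3 and 75.4. For these 3 the 95% Poisson intervals of the knockouts lay above those of the controls. For Timp4 they overlapped, with 76.3 to 149 in knockout 2 and 43.8 to 95.4 in control 2.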

How the results depend on the processing

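Of 98 alternative values of the 7 members' knockout changes, 95 kept their direction and side of the threshold, 3 lost the call and 0 turned. Lost were Mmp14 with spots thinned to 1000 UMIs (0.50) and with region-matched sums (0.72), and Mmp2 without choroid plexus and pituitary spots (-0.39). Over all alternatives Timp1 ranged from 5.74 to 6.47, Timp2 from 0.71 to 0.90, Timp3 from 0.75 to 1.20, Timp4 from 1.11 to 1.56, Mmp2 from -1.15 to -0.39, Mmp14 from 0.50 to 1.03 and Mmp15 from -1.17 to -0.80. Thinning to 1000 UMIs left 3329 genes called, and the number called without 1 library ranged from 4924 to 7182. With the replicate number as a replicate block 5813 genes and 7 members were called. Deviations of same-numbered libraries were only weakly and negatively correlated (r = -0.118 across genes). A crossed pairing, chosen after seeing the data, called 8176 genes and 7 members. The paired fits changed no member's call.

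Timp1-positive spots gave 2048 called genes, but 7038 without thinning, 370 with spots thinned to 2000 UMIs, 544 with at least 2 Timp1 UMIs and 892 with region-matched negatives. A robust fit of the spread, also added after seeing the data, called 2056. Of 120 values of the named rises 14 lost the call, 9 of them with 2000 UMIs. Across spot classes 60 of 840 values lost and 17 gained a call.

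Shares depend on depth. The knockout minus control difference in percentage points, with spots thinned to 1000 UMIs, was 4.83 for Timp1, 14.4 for Timp2, 6.13 for Timp3, 7.80 for Timp4, -0.232 for Mmp2, 0.132 for Mmp14 and -0.824 for Mmp15. Without thinning it was 29.2 for Timp1, 10.1 for Timp2, -1.99 for Mmp2, 1.65 for Mmp14 and -11.1 for Mmp15. No share changed direction in these.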
